A study of Homo sapiens
Mus musculus with 8 samples.

Results

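The genes described here were 10 of the 60736 in the deposited gene list. They were picked by comparing droplet libraries that count a messenger RNA from its 3′ end with libraries that count from its 5′ end. They were the mouse genes Timm23, Tfdp1, Nutf2, Gpr25, Etfb and Dennd5b and the human genes TFDP1, ETFB, NUTF2 and GABARAP. Not all of them differed between kits in each line, and TFDP1 was close to level. The genes were chosen by earlier values of the same libraries in the comparison of the 3′ v3 kit with the 5′ v1 kit, so their differences in that comparison are a description and carry no p-value. The questions asked of them were whether the difference was alike in both mouse lines, in the gene of the same name in human cells, and in both kits that count from the 3′ end.

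The libraries were made with the Chromium system of 10x Genomics, which tags the RNA of a cell with 1 barcode and counts its molecules by a random tag, the unique molecular identifier (UMI). All came from mixtures of equal parts of 4 lymphocyte lines, the mouse lines EL4 (CD4+ T cells) and IVA12 (B cells) and the human lines Jurkat (CD4+ T cells) and TALL-104 (CD8+ T cells), each an established line grown in culture, TALL-104 with interleukin-2 in its medium per the study's methods. No group was set apart by a treatment. The groups were 4 libraries of the 3′ v3 kit, 2 of the 5′ v1 kit and 1 of the 3′ v2 kit (replicate 2). The other 3′ v2 library was not analysed here. Per the study's sample table, the 3′ v2 library came from cell mixture A, both 5′ v1 libraries from mixture B, 3′ v3 replicates 1 and 3 from mixture F and replicates 2 and 4 from mixture G. Kit and mixture cannot be told apart between kits, and libraries of 1 mixture share their cells' preparation, so the p-values measure the spread between these libraries, which may be technical.

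In these kits reverse transcription starts at the poly(A) tail, and the kits differ in which end of the copied molecule keeps the barcode and is sequenced. A read near the 3′ end can fall in the last exon and the 3′ untranslated region, and a read near the 5′ end in the first exons, so the 2 counts of a gene rest on different parts of its transcript and of its annotation. The members serve unlike functions. Timm23 forms the channel of the translocase that carries proteins across the inner mitochondrial membrane. Tfdp1 is a dimer partner of the E2F factors that drive cell cycle genes, and Nutf2 carries the small GTPase Ran into the nucleus. Etfb is a subunit of the flavoprotein that takes electrons from the acyl-CoA dehydrogenases, Gpr25 is an orphan receptor of lymphocytes, Dennd5b has a DENN domain of the kind that activates Rab GTPases, and GABARAP is an ATG8 family protein of autophagy. No genome, annotation or sequence table of the builds used by the files was at hand, so positions, exons and sequences of the members are not given.

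Cells were barcodes with at least 5000 UMIs, over 80% of them from 1 species and under 10% of them mitochondrial. The libraries held 447 to 2690 EL4 cells, 89 to 1529 IVA12 cells and 115 to 2970 Jurkat cells, from 24790710 to 251164949 UMIs in all. The UMIs of a line in a library summed to 1412152 at the least and 78160223 at the most. Pairs of libraries shared between 0 and 14 cell barcodes. The 6 T cell markers Cd3d, Cd3e, Cd3g, Thy1, Lck and Cd5 summed to 1444 to 1930 CPM, the UMIs of a gene scaled to 1000000 UMIs of its species in that line and library, in EL4 cells and to 3.61 to 34.6 CPM in IVA12 cells. Of the B cell markers given here, Cd79b (203 to 344 CPM), Ms4a1 (83.0 to 167 CPM) and Cd74 (29.4 to 156 CPM) were found in IVA12 cells, while Cd79a, Pax5, H2-Aa and H2-Ab1 stayed at or under 0.83 CPM. Jurkat cells carried CD3D, CD3E, CD3G, LCK, CD1E and CD5, with RAG1 at or under 2.93 CPM, and the 6 markers of TALL-104 summed to 31.0 to 117 CPM in them, mostly from CTSW and GZMA. Human cells outside the Jurkat definition numbered 9 to 327 per library and were not analysed as a line. In them CD3D, CD3E, CD3G, LCK, CD1E, CD5 and RAG1 summed to 2597.0 to 3265.7 CPM, against 2477.0 to 3318.5 CPM in Jurkat cells. These 7 markers therefore did not tell Jurkat cells from the other human cells. The 6 markers of TALL-104 summed to 193 to 585 CPM in the other human cells.

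Timm23 (ENSMUSG00000013701) was counted almost only by the 5′ kit in both mouse lines. In EL4 cells it stood at 275 and 291 CPM in the 5′ v1 libraries and at 3.23, 5.59, 10.7 and 5.12 CPM in 3′ v3 replicates 1 to 4, with 6.07 CPM in the 3′ v2 library. In IVA12 cells the same libraries gave 235 and 247 CPM (5′ v1), 3.58, 4.38, 11.5 and 5.81 CPM (3′ v3) and 5.81 CPM (3′ v2). The groups did not overlap in either line, and replicate 3 was the highest 3′ v3 library in both. The 5′ v1 mean was 45.9-fold that of 3′ v3 in EL4 cells, 283 ± 10.97 CPM (SD, n = 2) against 6.16 ± 3.19 CPM (SD, n = 4).

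Tfdp1 (ENSMUSG00000038482) followed the same pattern. It stood at 186 and 185 CPM in the 5′ v1 libraries in EL4 cells and at 4.10, 8.13, 13.3 and 10.0 CPM in the 3′ v3 libraries, with 3.85 CPM in 3′ v2. In IVA12 cells it was at 123 and 118 CPM in 5′ v1, at 4.53, 9.76, 10.8 and 10.5 CPM in 3′ v3 and at 4.15 CPM in 3′ v2. Replicate 1 was the lowest 3′ v3 library in both lines. The 5′ v1 mean was 20.8-fold that of 3′ v3 in EL4 cells and 13.5-fold in IVA12 cells.

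Nutf2 (ENSMUSG00000008450) was lower in 3′ libraries by a smaller factor. In EL4 cells it was at 130 and 122 CPM in 5′ v1, at 10.6, 14.3, 25.2 and 12.5 CPM in 3′ v3 and at 19.7 CPM in 3′ v2. In IVA12 cells the values were 126 and 128 CPM in 5′ v1, 8.39, 12.5, 22.2 and 8.76 CPM in 3′ v3 and 23.2 CPM in 3′ v2. Replicate 3 was again the highest 3′ v3 library in both lines, and the groups did not overlap. The only other entry of the gene list whose name begins with this symbol, the pseudogene Nutf2-ps1, was at 0.13 to 1.80 CPM in 3′ v3, 2.00 to 2.82 CPM in 5′ v1 and 3.73 to 4.19 CPM in 3′ v2 over both lines. Reads that fit both copies may have been lost or split between them, which leaves the level of Nutf2 uncertain by an amount not measured here.

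Gpr25 (ENSMUSG00000052759) was seen in EL4 cells through the 5′ kit. Its level was 31.8 and 32.7 CPM in 5′ v1, from 987 and 588 UMIs. In 3′ v3 it was 0.30, 0.62, 0.40 and 0.38 CPM, from 68 UMIs over the 4 libraries, and in 3′ v2 it was 0.26 CPM, from 3 UMIs. The 5′ v1 mean was 75.8-fold that of 3′ v3. In IVA12 cells the 5′ v1 libraries held 1 UMI, the 3′ v3 libraries 6 (5 of them in replicate 3) and the 3′ v2 library 0, where 3 UMIs would have been 0.056 to 1.24 CPM, so no kit difference can be read in that line.

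Etfb (ENSMUSG00000004610) was counted almost only by the 3′ kits. In EL4 cells it was at 143, 76.0, 133 and 82.6 CPM in 3′ v3, at 53.7 CPM in 3′ v2 and at 2.10 and 1.39 CPM in 5′ v1. In IVA12 cells it was at 128, 53.0, 120 and 52.6 CPM in 3′ v3, at 36.5 CPM in 3′ v2 and at 4.66 and 5.93 CPM in 5′ v1. Replicates 1 and 3, of mixture F, were above replicates 2 and 4, of mixture G, in both lines. The 3′ v3 mean was 62.3-fold that of 5′ v1 in EL4 cells and 16.7-fold in IVA12 cells.

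Dennd5b (ENSMUSG00000030313) was a gene of IVA12 cells in every library. There it stood at 130, 280, 144 and 306 CPM in 3′ v3, at 192 and 185 CPM in 5′ v1 and at 115 CPM in 3′ v2. The 5′ v1 values lay between those of mixture F and those of mixture G, so the kits overlapped. In EL4 cells it was at 2.81, 8.13, 8.66 and 11.01 CPM in 3′ v3, at 1.32 and 0.33 CPM in 5′ v1, from 41 and 6 UMIs, and at 2.05 CPM in 3′ v2.

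**Figure D1:**
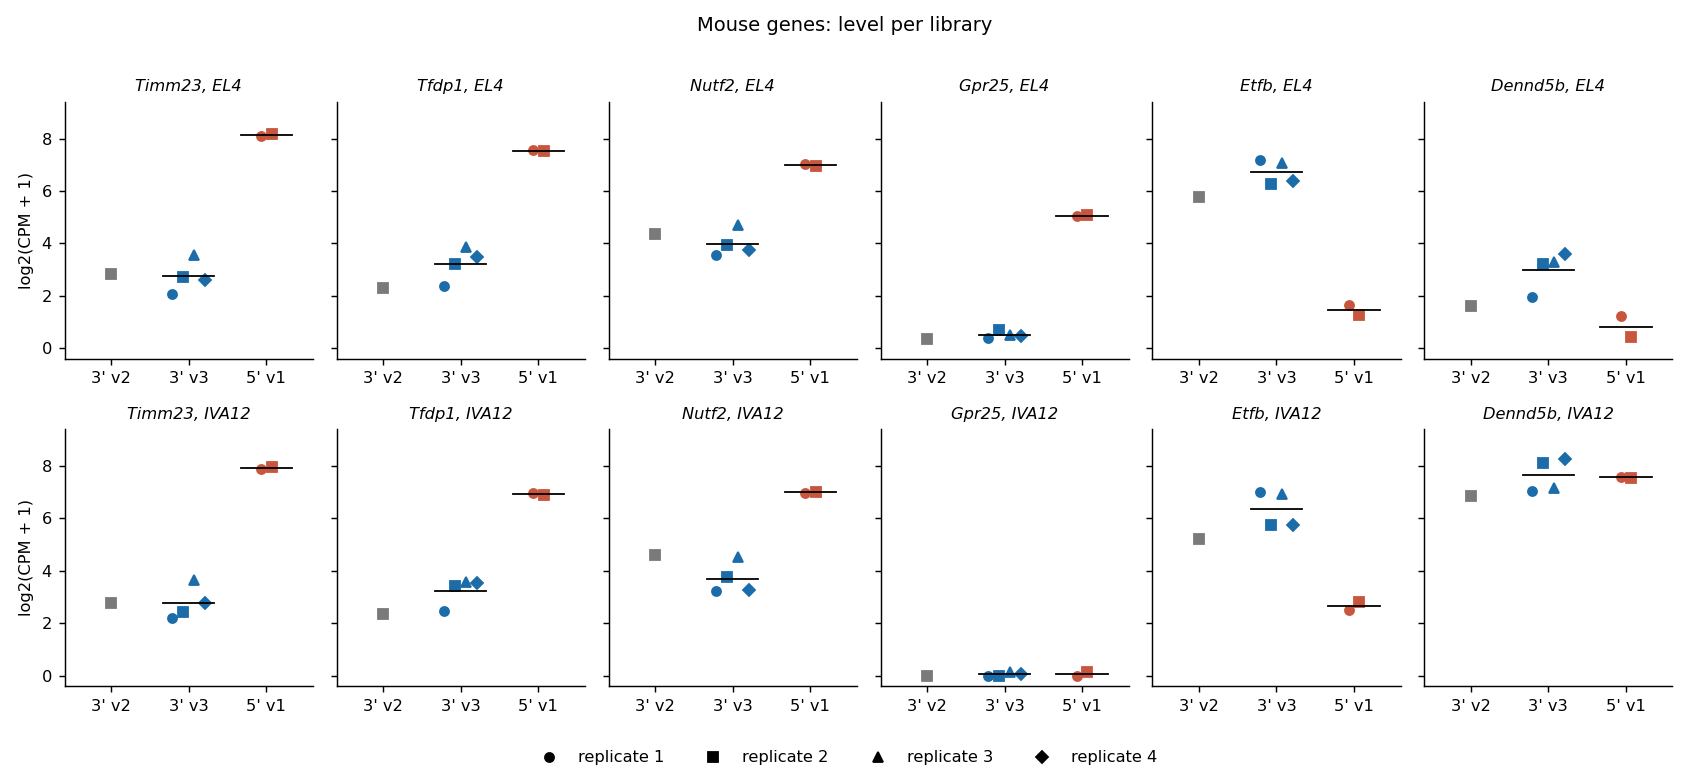
Level of the 6 mouse genes in EL4 cells (top) and IVA12 cells (bottom), as log2(CPM + 1) per library for each kit. Symbols mark the replicate number within a kit and horizontal lines the mean of a kit's libraries. Timm23, Tfdp1 and Nutf2 sit high in 5′ v1 in both lines, Etfb sits high in both 3′ kits, Gpr25 is high in EL4 cells of 5′ v1 and near 0 elsewhere, and Dennd5b is high in IVA12 cells of every kit.

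The low counts of Dennd5b in EL4 cells moved with those of other genes of IVA12 cells. Expressed as a share of the level in IVA12 cells of the same library, Dennd5b in EL4 cells was at 2.16% to 6.03% in 3′ v3, 0.18% to 0.69% in 5′ v1 and 1.79% in the library of 3′ v2. The same share was 1.26% to 3.65%, 0.31% to 0.43% and 0.40% for Cd79b, a part of the B cell receptor, and 1.09% to 3.06%, 0.17% to 0.34% and 0.51% for Fam46c, the gene whose levels were most like those of Dennd5b. For Gabarapl1 it was 1.55% to 4.70% in 3′ v3, 0.18% in both 5′ v1 libraries and 1.35% in 3′ v2. Fam46c and Gabarapl1 came in through their levels in these same libraries, so that of these 3 only Cd79b, a marker, is free of that choice. Cd79b was, like Dennd5b, counted in EL4 cells at a larger share of its IVA12 level in every 3′ v3 library than in either 5′ v1 library, and the share of Dennd5b was above that of Cd79b in each 3′ v3 library except replicate 4. Ms4a1 (0.95% to 1.95% in 3′ v3, 0% to 0.57% in 5′ v1) did the same, whereas Cd74 (0.84% to 3.17% against 1.24% to 1.73%) overlapped. Barcodes of Jurkat cells, which are human, also held mouse Dennd5b UMIs. After thinning to 5000 UMIs, 0.65% to 1.74% of Jurkat cells in 3′ v3 had one, against 1.03% to 3.77% of EL4 cells. Per EL4 cell, human UMIs made up a median of 0.17% to 0.94% of all UMIs in 3′ v3 and of 0.029% to 0.043% in 5′ v1. Among the UMIs of barcodes under 100 UMIs, taken as free RNA, Dennd5b stood at 45.5 to 95.9 CPM in 3′ v3 and at 55.5 and 54.3 CPM in 5′ v1. The part of free RNA and of mixed barcodes in the EL4 value was not tested beyond these values.

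**Figure D2:**
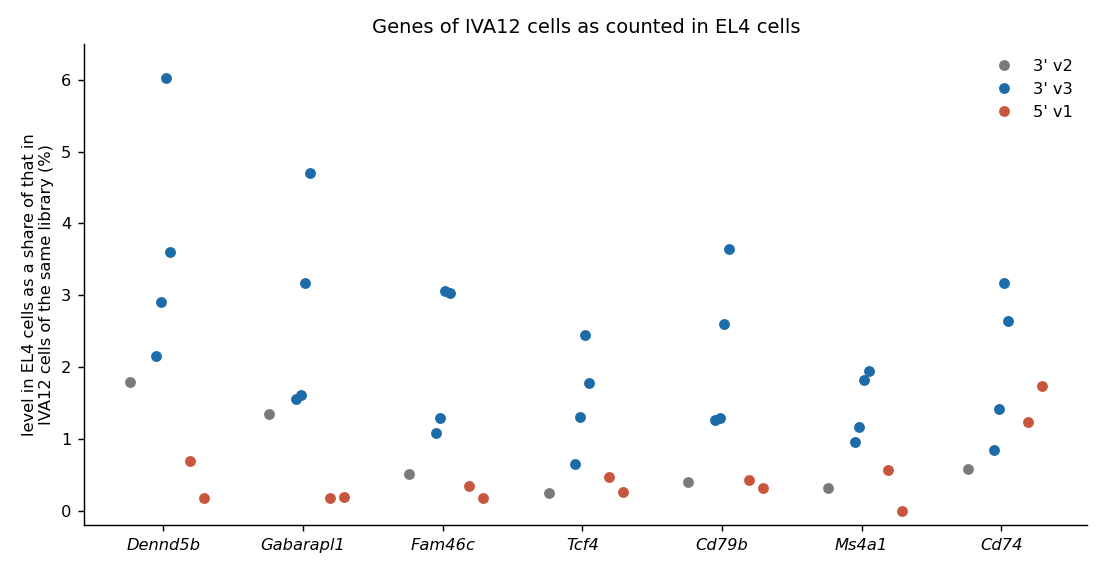
Level in EL4 cells as a share (%) of the level in IVA12 cells of the same library, for Dennd5b and 6 other genes of IVA12 cells, with 1 point per library coloured by kit. Dennd5b reaches 2.16% to 6.03% in 3′ v3 and stays at 0.18% to 0.69% in 5′ v1, and Gabarapl1, Fam46c, Tcf4, Cd79b and Ms4a1 are also lower in 5′ v1, while Cd74 overlaps between kits.

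Of the human members in Jurkat cells, GABARAP (ENSG00000170296) differed most between kits. It stood at 170 and 177 CPM in 5′ v1, at 4.14, 5.67, 22.7 and 7.89 CPM in 3′ v3 and at 6.40 CPM in 3′ v2. Replicate 3 was far above the other 3′ v3 libraries, and the groups did not overlap. The 5′ v1 mean was 17.2-fold that of 3′ v3, 174 ± 4.76 CPM (SD, n = 2) against 10.1 ± 8.55 CPM (SD, n = 4).

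ETFB (ENSG00000105379) was higher in the 3′ kits, like its mouse counterpart, but was not lost from the 5′ libraries. It was at 216, 170, 201 and 171 CPM in 3′ v3, at 139 CPM in 3′ v2 and at 42.4 and 34.1 CPM in 5′ v1, with a 3′ v3 mean 4.95-fold that of 5′ v1. NUTF2 (ENSG00000102898) was at 449 and 432 CPM in 5′ v1, at 235, 141, 214 and 113 CPM in 3′ v3 and at 245 CPM in 3′ v2. The 5′ v1 mean was 2.51-fold that of 3′ v3, with mixture G below mixture F.

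TFDP1 (ENSG00000198176) was close to level between kits. It was at 120 CPM in both 5′ v1 libraries, at 114, 97.02, 113 and 83.6 CPM in 3′ v3 and at 134 CPM in 3′ v2. All 3′ v3 values were below the 5′ v1 values and the 3′ v2 value was above them, which leaves the order of the kits unlike that of mouse Tfdp1.

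Of the genes that share a name with a member in the other species, TIMM23 (ENSG00000138297) went the opposite way to Timm23. It was at 54.8, 29.7, 57.6 and 27.6 CPM in 3′ v3, at 50.1 CPM in 3′ v2 and at 8.25 and 9.22 CPM in 5′ v1, so that the 3′ v3 mean was 4.86-fold that of 5′ v1. Its near-identical copy TIMM23B held 16 and 8 UMIs in 5′ v1 and 2 in 3′ v3, all in replicate 3. Reads that fit both copies may have been lost or split between them, which leaves the level of TIMM23 uncertain by an amount not measured here. DENND5B was at 2.52 to 4.96 CPM in 3′ v3, 3.16 and 4.36 CPM in 5′ v1 and 2.05 CPM in 3′ v2, with overlapping kits, and its antisense gene DENND5B-AS1 had 4 UMIs in all. GPR25 had no UMI in Jurkat cells of any library, where 3 UMIs would have been 0.051 to 2.12 CPM. Mouse Gabarap stood at 99.98 to 173 CPM in 3′ v3, 247 and 231 CPM in 5′ v1 and 116 CPM in 3′ v2 in EL4 cells, and so was seen well by every kit, unlike human GABARAP.

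**Figure D3:**
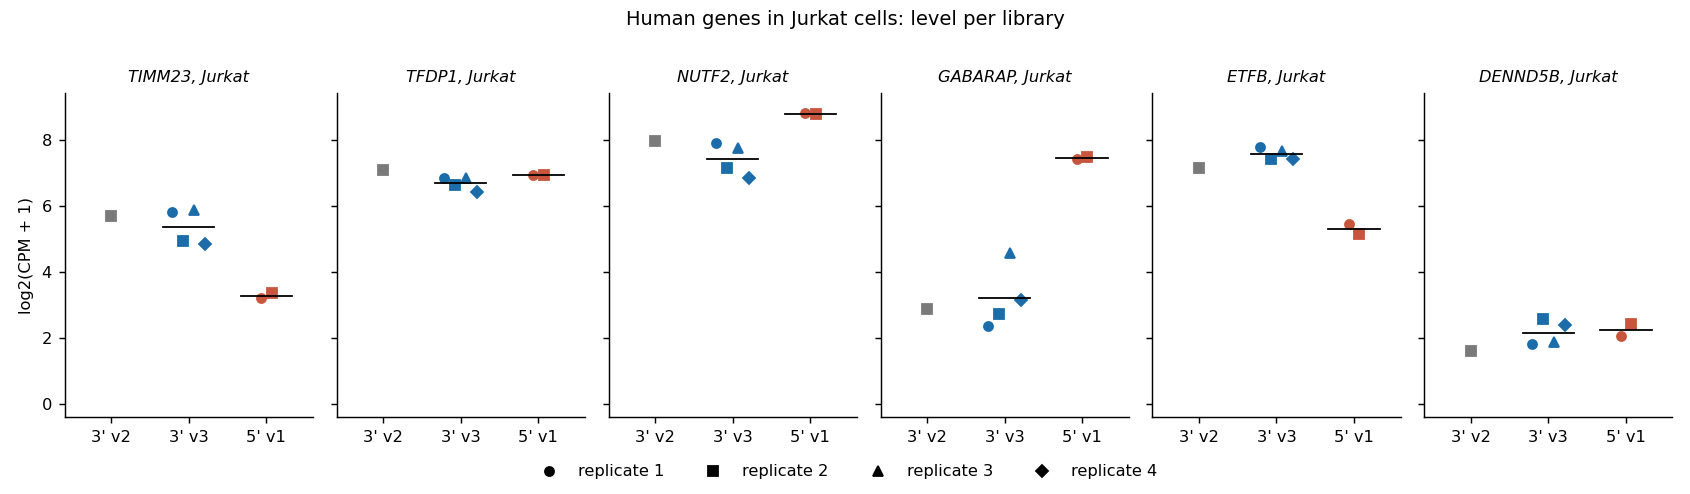
Level of TIMM23, TFDP1, NUTF2, GABARAP, ETFB and DENND5B in Jurkat cells, as log2(CPM + 1) per library for each kit, with symbols for the replicate number and lines for the mean of a kit's libraries. GABARAP is high in 5′ v1 only, ETFB and TIMM23 are higher in both 3′ kits, and TFDP1 and DENND5B lie close together in all kits.

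On the fitted scale the kit difference, as log2 of 3′ v3 over 5′ v1 with its standard error (SE), was -5.53 ± 0.48 for Timm23, -4.43 ± 0.41 for Tfdp1, -3.04 ± 0.39 for Nutf2, -6.36 ± 0.20 for Gpr25, 5.90 ± 0.58 for Etfb and 2.98 ± 0.66 for Dennd5b in EL4 cells. In IVA12 cells it was -5.17 ± 0.49 for Timm23, -3.74 ± 0.31 for Tfdp1, -3.23 ± 0.43 for Nutf2, 4.15 ± 0.64 for Etfb and 0.16 ± 0.31 for Dennd5b. In Jurkat cells it was -0.26 ± 0.30 for TFDP1, 2.27 ± 0.35 for ETFB, -1.32 ± 0.43 for NUTF2, -3.98 ± 0.64 for GABARAP and 2.34 ± 0.50 for TIMM23. Across all genes, edgeR's quasi-likelihood test with Benjamini-Hochberg adjustment at 0.05 called 35.7% of 12571 genes in EL4 cells, 8.87% of 12374 in IVA12 cells and 15.3% of 13928 in Jurkat cells. Of the members, 6 of 6 passed in EL4 cells and 4 of the 5 that could be tested in IVA12 cells. In Jurkat cells 2 of 4 passed. Nothing is read from these calls, or from those that ended or were gained in the fits below, since the members were chosen on this comparison. Without 1 of the 5′ v1 libraries the calls ended for Etfb, Nutf2 and Timm23 in IVA12 cells. They also ended for ETFB and GABARAP and for Dennd5b in EL4 cells. With mixture G of 3′ v3 alone NUTF2, TFDP1 and Dennd5b in IVA12 cells were called as well. NUTF2 was also called with mixture F alone and by DESeq2. Dennd5b in IVA12 cells was called with either mixture alone, in opposite directions (0.53 with G, -0.30 with F). Differences above 2 in size on the log2 scale were found for 7.69% of the genes tested in EL4 cells, 5.28% in IVA12 cells and 7.53% in Jurkat cells. Of the members, NUTF2 and TFDP1 in Jurkat cells and Dennd5b in IVA12 cells were below that size. Without 3′ v3 replicate 3 the difference grew to -6.11 for Timm23 in EL4 cells, -5.74 for Timm23 in IVA12 cells and -5.02 for GABARAP. Dennd5b in EL4 cells was at 4.43 without 5′ v1 replicate 1, at 2.38 without 5′ v1 replicate 2 and at 4.22 with a marker ratio of 20 between the mouse lines. With 3′ v3 of mixture F alone TFDP1 turned to 0.08 and Dennd5b in IVA12 cells to -0.30.

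**Figure D4:**
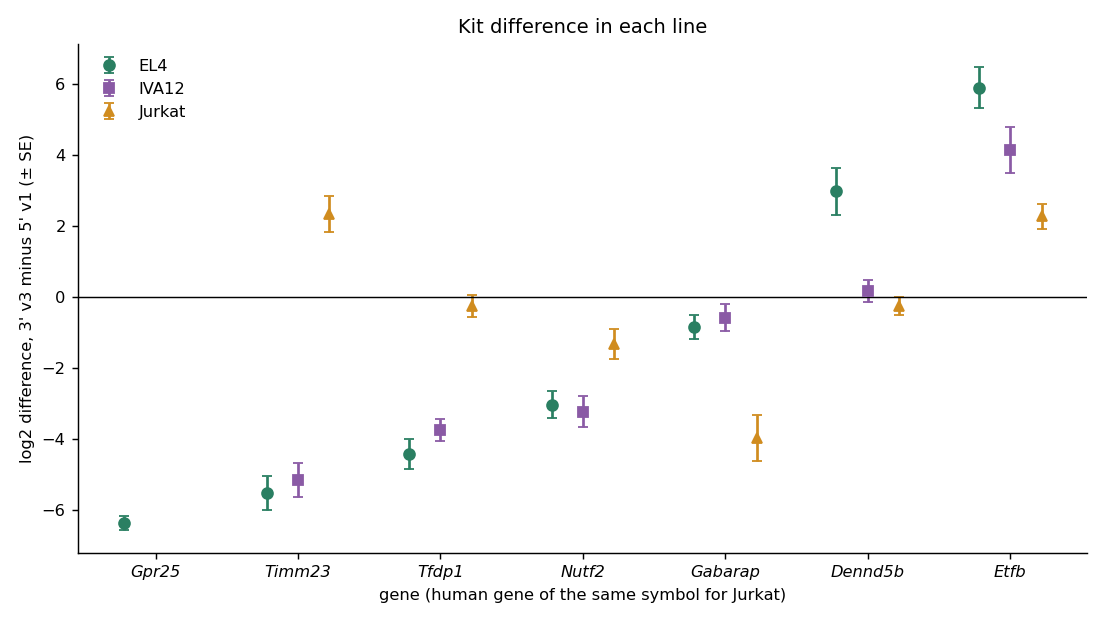
Kit difference of each gene, as log2 of 3′ v3 over 5′ v1 from the fit in EL4, IVA12 and Jurkat cells, with bars of 1 SE and the human gene of the same symbol shown for Jurkat. Timm23, Tfdp1, Nutf2 and Etfb lie on the same side of 0 in both mouse lines, TIMM23 lies on the other side from Timm23, and GABARAP falls far below Gabarap.

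Whether the difference was alike in EL4 and IVA12 cells was asked with the interaction of line and kit, fitted with each library as a block. The members were chosen on the same libraries, so this test is not independent of the choice. It called 29.8% of 13086 genes. Nutf2 gave a difference of 0.19 ± 0.12 between the lines (EL4 minus IVA12, log2, adjusted p = 0.261), which was not past the threshold. Timm23 differed by -0.40 ± 0.12 (adjusted p = 0.0333) and Tfdp1 by -0.73 ± 0.17 (adjusted p = 0.00996), so both fell further in EL4 cells, by amounts that were small beside the kit difference itself. Per library, Tfdp1 in EL4 cells was 1.51- and 1.57-fold its IVA12 level in 5′ v1 and 0.83- to 1.23-fold in 3′ v3, while Timm23 was at 1.17- and 1.18-fold in 5′ v1 and 0.88- to 1.28-fold in 3′ v3.

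Etfb differed by 1.72 ± 0.26 (adjusted p = 0.00111), which had the smallest adjusted p among the members. Its EL4 level was 1.10- to 1.57-fold that of IVA12 cells in 3′ v3 and 0.45- and 0.23-fold in 5′ v1, so the lines were ordered one way in every 3′ library and the other way in both 5′ libraries. Dennd5b differed by 2.74 ± 0.53 (adjusted p = 0.00395), on the low EL4 counts that were set beside those of Cd79b. Over 12 alternatives the difference ranged from 2.22 to 4.16 for Dennd5b and from 1.36 to 2.32 for Etfb. The interaction test also called Gpr25 (-7.20 ± 1.35, adjusted p = 0.00331), and that call was lost without 3′ v3 replicate 3. Nothing is read from it, since the counts of Gpr25 in IVA12 cells were too few for a kit difference there. The calls of Timm23, Tfdp1 and Dennd5b were each lost in at least 1 alternative, Timm23 in 4 of 12 (highest adjusted p = 0.175), Tfdp1 without either 5′ v1 library (0.0921) and Dennd5b without 5′ v1 replicate 2 (0.0503). That of Etfb was past the threshold in all 12, with adjusted p of at most 0.0198.

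The human and mouse genes were set against each other as the difference of log2(CPM + 1) between Jurkat and EL4 cells of the same library, compared between 3′ v3 and 5′ v1. The human kit difference minus the mouse one was 7.49 for TIMM23, 4.09 for TFDP1, 1.62 for NUTF2, -2.999 for ETFB, -2.26 for DENND5B and -3.39 for GABARAP. In all 6 pairs the 4 libraries of 3′ v3 did not overlap the 2 of 5′ v1. The share of all human and mouse gene pairs without overlap was not computed, so nothing is read from that count. Since the members were chosen on this comparison, this is a description, and an exact two-sided permutation test, which gave 0.0667 for each pair before and after adjustment over the 6, cannot go lower with 4 against 2 libraries. The directions were shared by ETFB and NUTF2, opposite for TIMM23, and GABARAP fell much further than Gabarap. TFDP1 (-0.24) and DENND5B (-0.076) were near level between kits in Jurkat cells, against -4.33 for Tfdp1 and 2.18 for Dennd5b in EL4 cells. The Dennd5b value rests on the low EL4 counts described above. In IVA12 cells, where Dennd5b was high in every library, its fitted kit difference was 0.16 ± 0.31. The difference of this pair is therefore one against EL4 cells only. GPR25 was left out because it was under 3 CPM in every library.

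The 3′ v2 library, the other kit that counts from the 3′ end, lay within the range of the 3′ v3 libraries for Timm23 and Nutf2 in EL4 cells and for GABARAP in Jurkat cells. It was below that range for Etfb, Gpr25, Dennd5b, Tfdp1 and ETFB and above it for TFDP1 and NUTF2, on the same side of 5′ v1 as 3′ v3 for every one of them in these 2 lines but TFDP1. In IVA12 cells Dennd5b was below both 5′ v1 libraries in 3′ v2 and on both sides of them in 3′ v3. There the 3′ v2 value was above the 3′ v3 range for Nutf2 and below it for Etfb, Tfdp1 and Dennd5b. The 3′ v2 library was compared with the 4 of 3′ v3 in the same fit, where it is a single library assumed to vary like the rest. The test called 1.2% of 12571 genes in EL4 cells, 0.574% in IVA12 cells and 0.0144% in Jurkat cells, and no member. DESeq2 called no member either, and TFDP1 was the only one with an unadjusted p under 0.05 (0.0332 in edgeR's test). In EL4 cells the difference (3′ v2 minus 3′ v3, log2) was 0.36 ± 0.66 for Timm23, -0.79 ± 0.65 for Tfdp1, 0.73 ± 0.52 for Nutf2, -0.63 ± 0.55 for Etfb, -0.22 ± 0.57 for Gpr25 and -1.42 ± 0.85 for Dennd5b, with adjusted p from 0.418 to 0.912. In IVA12 cells the largest was 1.21 ± 0.61 for Nutf2 (adjusted p = 0.509). In Jurkat cells they were 0.97 ± 0.37 for TFDP1 (adjusted p = 0.334), 1.02 ± 0.54 for NUTF2 (0.456), 0.13 ± 0.40 for ETFB (0.904) and -0.23 ± 1.00 for GABARAP (0.939). A p that misses the threshold with 1 library and errors of this size does not show that the 3′ kits count the members alike. Without 3′ v3 replicate 3, Nutf2 in EL4 cells was higher in 3′ v2 by 1.19 (adjusted p = 0.0298). Set against 5′ v1, the 3′ v2 library put Timm23 46.6-fold lower, Tfdp1 48.2-fold lower and Etfb 30.8-fold higher in EL4 cells, and GABARAP 27.1-fold lower in Jurkat cells.

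Preparations of 1 kit also differed. Within 3′ v3, mixture G against mixture F changed 57.4% of genes in EL4 cells, 67.6% in IVA12 cells and 55.7% in Jurkat cells by the same edgeR test and calls of members are read against these shares. Etfb was lower in mixture G by -1.16 ± 0.07 in EL4 cells (adjusted p = 1.43e-04) and by -1.49 ± 0.06 in IVA12 cells (adjusted p = 2.86e-06), and Dennd5b was higher by 0.84 ± 0.08 in IVA12 cells (adjusted p = 2.87e-05). In Jurkat cells TFDP1 (-0.75 ± 0.11, adjusted p = 3.86e-05), ETFB (-0.69 ± 0.10, adjusted p = 3.80e-05) and NUTF2 (-1.25 ± 0.12, adjusted p = 4.82e-07) were lower in mixture G. Jurkat cells of mixture G numbered 115 and 319, with median mitochondrial shares of 8.96% and 8.64% and medians of 11609 and 10844 UMIs. Those of mixture F numbered 1385 and 2970, with 6.29% and 4.74% and with 18346 and 18115 UMIs. The part of these differences between cells in the lower values was not tested. The low 3′ v3 counts of Timm23, Tfdp1 and Nutf2 gave -0.80, -0.34 and -0.83 in EL4 cells, none past the threshold, and the 2 libraries of mixture F lay far apart for them, with replicate 3 at 3.31, 3.26 and 2.38 times replicate 1. All 3 genes were called lower in mixture G without replicate 1, and also with all 4 libraries where low genes were not filtered out, and without replicate 3 the sign turned for Timm23 (0.36) and Tfdp1 (0.83). Replicate 3 also had the largest share of UMIs from the other species in EL4 cells, a median of 0.94% against 0.17% to 0.44% in the other 3′ v3 libraries, and the part of this in its higher values was not tested.

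The counts per cell came from the same UMIs, so they describe the same differences in another form and are no separate evidence. After each cell was thinned to 5000 UMIs, at least 1 UMI of Timm23 was seen in 70.5% and 73.6% of EL4 cells in 5′ v1 and in 1.58% to 5.91% in 3′ v3, while at most 0.47% of Jurkat cells in 3′ v3 and 1.01% in 5′ v1 held one. Etfb was seen in 29.5% to 48.0% of EL4 cells in 3′ v3 and in 1.27% and 0% in 5′ v1. The 0% was 0 of 666 cells in a single random thinning. These cells held 25 Etfb UMIs before thinning, so no upper limit is read from the 0. Without thinning, cells of 3′ v3 gave 83.1% to 95.2% and the 5′ v1 libraries 5.00% and 3.75%. Gpr25 was seen in 13.98% and 14.11% of EL4 cells in 5′ v1 and in 0% to 0.16% in 3′ v3. GABARAP was seen in 58.4% and 57.1% of Jurkat cells in 5′ v1 and in 1.59% to 10.1% in 3′ v3, with at most 0.65% of mouse cells holding one. Cells of 1 library are not replicates, and the ranges are over libraries.

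**Figure D5:**
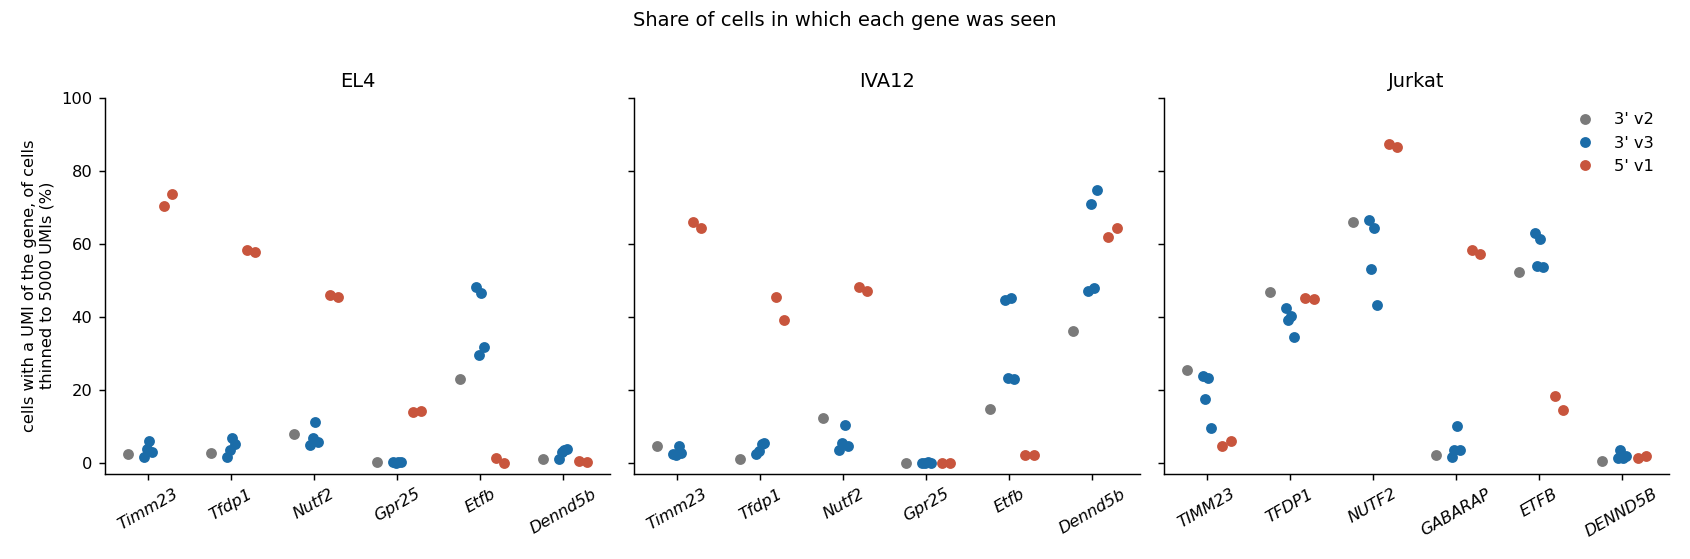
Share of cells (%) with at least 1 UMI of each gene after thinning each cell to 5000 UMIs, in EL4, IVA12 and Jurkat cells, with 1 point per library coloured by kit. Timm23 is seen in 70.5% and 73.6% of EL4 cells in 5′ v1 and in 1.58% to 5.91% in 3′ v3, and GABARAP in 58.4% and 57.1% of Jurkat cells in 5′ v1 and in 1.59% to 10.1% in 3′ v3.

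Other genes of the members' pathways were listed by pathway, with earlier results of these data known. Of each list up to 2 genes are named for having the largest kit difference among those called in EL4 cells. Their EL4 values and adjusted p therefore come from the comparison that picked them. Their size is not set against that of the members. Lists of 102 mouse and 104 human genes other than members covered the mitochondrial translocases, the E2F and pocket proteins, the electron transfer flavoprotein and its dehydrogenases, nuclear transport, lymphocyte receptors, DENN proteins and the ATG8 system. In EL4 cells 19 of the 95 tested were higher and 19 lower in 3′ v3, in IVA12 cells 4 were higher and 3 lower of 94, and in Jurkat cells 4 were higher, TIMM23 among them, and 4 lower of 95, where 35.7%, 8.87% and 15.3% of all genes were called. The other subunits of the TIM23 translocase and its motor had a median of 0.48 in EL4 cells (0.06 over all genes), with Romo1 higher by 1.69 ± 0.26 (adjusted p = 0.00312) and Timm44 by 1.01 ± 0.23 (adjusted p = 0.0139), the opposite direction to Timm23. In IVA12 cells edgeR called 0 of 10, with a median of 0.05, Romo1 at 0.70 (adjusted p = 0.124) and Timm44 at 0.68 (adjusted p = 0.0586), and in Jurkat cells 1 of 11 was higher, TIMM23 itself, and 1 lower. In EL4 cells Romo1 stood at 219 to 314 CPM in 3′ v3 and at 71.0 and 86.1 CPM in 5′ v1. Of the 13 TOM and other TIM proteins, 3 were higher in EL4 cells, led by Tomm7 (1.49) and Timm10 (1.203), and 2 were lower, while in IVA12 cells 1 was higher (Tomm7, 1.11) and 1 lower.

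Tfdp2, the other dimer partner of the E2F factors, was lower in 3′ v3 in both mouse lines, by -1.55 ± 0.13 in EL4 cells (adjusted p = 6.28e-04) and by -1.03 ± 0.17 in IVA12 cells (adjusted p = 0.0160). Of the 12 E2F and pocket protein genes tested, 5 were lower in EL4 cells and none higher, with a median of -0.31, and 1 was lower in IVA12 cells. In Jurkat cells 2 of 11 were higher and none lower, with a median of 0.05. Of the flavoprotein's dehydrogenases and partners, 6 of 11 were higher in EL4 cells and 1 lower, with Acadvl at 1.34 ± 0.31 (adjusted p = 0.0136) and Acads at 1.11 ± 0.33 (adjusted p = 0.0365). In IVA12 cells Acadvl was at 0.76 (adjusted p = 0.161) and Acads at -0.12 (adjusted p = 0.902), and edgeR called 0 of 11 there (median 0.04) and 0 of 10 in Jurkat cells. Nuclear transport genes gave 4 higher and 1 lower of 17 in EL4 cells, led by Cse1l (1.304) and Rangap1 (1.26). In IVA12 cells 1 of 17 was higher, Rangap1 (1.05), with Cse1l at 0.51 (adjusted p = 0.344), and in Jurkat cells 0 of 17 were called, with a median of -0.24.

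Of 11 lymphocyte receptor genes, 7 could be tested in EL4 cells, where Gpr174 was lower by -0.85 ± 0.26 (adjusted p = 0.0392) and Gpr65 higher by 0.68 ± 0.18 (adjusted p = 0.0221). In IVA12 cells 2 of the 5 tested were higher. These were Gpr65, at 0.39 to 0.76 CPM in 3′ v3 and 0 and 0.085 CPM in 5′ v1, and Gpr132, named here after its value was seen, at 0.19 to 0.53 CPM in 3′ v3 and with no UMI in 5′ v1. In EL4 cells both stood at 7.70 CPM or more in every library of these kits. In the same IVA12 sums the EL4 markers Thy1 (4.53 to 9.55 CPM against 0.56 and 0.73 CPM) and Cd3d (1.85 to 9.76 CPM against 0.19 and 0.21 CPM) were also higher in 3′ v3, and their part in these values was not tested. In Jurkat cells 1 of 7 was higher, S1PR4 at 3.55 ± 0.58 (adjusted p = 0.00881), also named after its value was seen. Of 11 genes of DENN proteins and Rab6 tested in EL4 cells, 5 were lower and none higher, with 0 of 12 called in IVA12 cells and 1 of 14, lower, in Jurkat cells. Among those lower in EL4 cells were Dennd2d (-1.85) and Dennd4a (-1.34), the opposite sign to Dennd5b. In the ATG8 system, 3 of 14 were higher and 4 lower in EL4 cells, 1 of 14 was lower in IVA12 cells and 1 of 13 was lower in Jurkat cells. Sqstm1, an adaptor that binds ATG8 proteins, was lower by -1.91 ± 0.18 in EL4 cells (adjusted p = 7.90e-04) and by -1.29 ± 0.19 in IVA12 cells (adjusted p = 0.0116), and Gabarapl1 was higher by 3.65 ± 0.72 in EL4 cells (adjusted p = 0.00795) at 0.77 to 2.37 CPM against 0.097 and 0.11 CPM, the low counts that were shown beside those of Dennd5b. In IVA12 cells Gabarapl1 was at 49.9 to 50.5 CPM in 3′ v3 and 54.1 and 60.4 CPM in 5′ v1. Gabarapl2 gave -0.39 ± 0.33 in EL4 cells (adjusted p = 0.383) and -0.47 ± 0.36 in IVA12 cells (adjusted p = 0.450). Of the human genes whose symbols begin with that of GABARAP, GABARAPL2 was at 144 to 260 CPM in 3′ v3 and 315 and 319 CPM in 5′ v1 (-0.65 ± 0.41, adjusted p = 0.309), GABARAPL1 at 9.77 to 12.0 CPM and 9.06 and 9.30 CPM (0.22 ± 0.18, adjusted p = 0.447), and GABARAPL3 had 1 UMI in all.

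The genes most like each mouse member were sought by Pearson's correlation of log2(CPM + 1) over 14 values, the EL4 and IVA12 sums of 7 libraries, which share library and depth, among 5350 other genes of at least 20 CPM on average (5351 for Gpr25). Timm23 was most like Atp6v0c (r = 0.99), a subunit of the vacuolar proton pump, which was at 2.35 CPM in 3′ v3 and 133 CPM in 5′ v1 in EL4 cells and at 1.56 and 117 CPM in IVA12 cells. The next were the members Tfdp1 and Nutf2 (r = 0.98 for both). Timm23, Tfdp1 and Nutf2 were all chosen on the kit difference in these libraries. Their likeness to each other is not independent of that choice, and nothing is read from it. Tfdp1 was most like Atp6v0c and Timm23 (r = 0.98 for both) and Plp2 (r = 0.96). Nutf2 was most like Rpl15 (r = 0.98), a ribosomal protein gene at 669 CPM in 3′ v3 and 3139 CPM in 5′ v1 in EL4 cells, ahead of Timm23 (r = 0.98) and Gm11808 (r = 0.96). Etfb was most like Nup35 (r = 0.98), Fdps (r = 0.97) and Ctnnbl1 (r = 0.96). Fdps, an enzyme of the isoprenoid pathway, was at 88.3 CPM in 3′ v3 and 5.31 CPM in 5′ v1 in EL4 cells.

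Dennd5b was most like Fam46c, Recql and Tcf4 (r = 0.99 for each), all of them higher in IVA12 cells in every kit. Gpr25 was most like Rpl17 (r = 0.96), Fam76a (r = 0.93) and Ddit3 (r = 0.93), which were all higher in EL4 cells of 5′ v1, by far smaller factors.

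The genes beside the human members were looked up in RefSeq's annotation of GRCh38.p14, which is not the build of the files and was used for gene order only. A gene said to come before or to follow another lies at a lower or higher coordinate, whatever the strand. NUTF2 overlaps CENPT and GABARAP overlaps PHF23 there, and reads from the shared stretch may not be assigned to one gene. CENPT stood at 30.1 CPM in 3′ v3 and 36.0 CPM in 5′ v1 and PHF23 at 32.5 and 26.4 CPM in Jurkat cells, and neither passed the edgeR test (adjusted p = 0.179 and 0.489). Of the nearest protein-coding genes that could be tested, THAP11 before NUTF2 (adjusted p = 0.291), DVL2 before GABARAP (0.638), VSIG10L and CLDND2 beside ETFB (0.113 and 0.275) and AGAP4 and NCOA4 beside TIMM23 (0.532 and 0.957) did not pass. The other 2 did. EDC4, which follows NUTF2, was at 3.23 CPM in 3′ v3 and 23.4 CPM in 5′ v1 (log2 -2.93 ± 0.42, adjusted p = 0.00615), and CTDNEP1, which follows GABARAP, was at 139 and 59.5 CPM (1.19 ± 0.28, adjusted p = 0.0294).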

How the data were processed

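The authors deposited raw UMI counts per gene and barcode, with every barcode kept. They had downsampled the reads with seqtk and counted them with Cell Ranger 3.0.2 and STAR against a combined reference of hg19 and mm10, per the study's methods and the labels. Whether the counting used strand is not given in the sources used here, so reads of overlapping or antisense genes may not be separated. Here, cells were taken by the stated limits on UMIs, species and mitochondrial share. Mouse cells were EL4 where Lgals1, S100a6 and Perp held at least 5 times the UMIs of Epcam, Cd24a, Ctss and Ckap4, and IVA12 where the reverse held. Human cells were Jurkat where NKG7, CST7 and CD8A held under 0.02% of UMIs. No doublet caller was run. Counts were summed per library and line and divided by the species' total for CPM.

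Differences came from edgeR 4.0.16 (TMM, filterByExpr, quasi-likelihood test, Benjamini-Hochberg over all genes of the species) in R 4.3.3, with the 3 kits in 1 fit per line, since cells of a library are not replicates. SE is the size of log2 fold change divided by the root of the F statistic. The interaction used library as a block. The functions were tested on simulated data. DESeq2 1.42.0, its size factors, no filter, other cell limits, single mixtures and leaving out each library were alternatives. Depth was the total UMI count of a library. Intervals and limits from counts cover counting error only.

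Members and gene lists were chosen with earlier results of these data known. Named were all members, the genes of the same name in the other species, entries whose symbols begin with a member's symbol, up to 2 genes per list with the largest difference among those called in EL4 cells, and the 3 genes most like each mouse member. Cd79b, Ms4a1 and Cd74 are marker genes, and their shares in EL4 cells, with that of Gabarapl1, were set beside Dennd5b after its values were seen.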

Additional observations from a re-analysis of the deposited data

Results flagged for a closer look

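In IVA12 cells, Tfdp1 stood at 4.53 CPM in 3′ v3 replicate 1, apart from the other 3 libraries of the kit at 9.76 to 10.8 CPM. It was found by comparing the gap to the nearest library with the range of the 4 libraries, in 16 groups of a member and a line, and chance flags about 1 in 20 groups.

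The kit difference (3′ v3 minus 5′ v1, log2) differed between the mouse lines for 4 members by the interaction test, given as EL4 minus IVA12. Gpr25 was also called but was set aside here for its few counts in IVA12 cells. The values were -0.40 for Timm23, -0.73 for Tfdp1, 1.72 for Etfb and 2.74 for Dennd5b. The members had been chosen on the same libraries, and 29.8% of all genes passed this test.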

How the results depend on the processing

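The members' kit differences kept their direction in all alternatives but 2, both with 3′ v3 of mixture F alone, where Dennd5b in IVA12 cells was at -0.30 and TFDP1 in Jurkat cells at 0.080. The number of genes called moved more. With mixture F or mixture G alone as 3′ v3, the kit difference called 7869 and 8133 genes in EL4 cells (4492 with all libraries), 7064 and 7692 in IVA12 cells (1097) and 8360 and 8041 in Jurkat cells (2134). The calls ranged, over fits without 1 library each, from 1183 to 4467, from 21 to 1101 and from 86 to 2884 in these lines, with the lowest counts without a 5′ v1 library. For 3′ v2 minus 3′ v3 such fits gave 8 to 298 in EL4 cells, 0 to 96 in IVA12 cells and 0 to 71 in Jurkat cells, and DESeq2 gave 711, 233 and 351 genes, against 151, 71 and 2 from edgeR. The higher mitochondrial limit gave 46 and a marker ratio of 20 gave 33 in IVA12 cells, and the higher UMI limit 1 in Jurkat cells, and the cause was not tested. The interaction ranged from 1373 to 4160 genes (3898) and mixture G minus F from 4565 to 7942 in EL4 cells (6850).

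Signs turned for differences that had not passed the threshold with all libraries, though some passed it in an alternative. With an unchanged sign, mixture G minus F passed it for several members where low genes were not filtered out. These were GABARAP, Timm23 and Nutf2 in both mouse lines, and Tfdp1 and Dennd5b in EL4 cells. Nutf2 in IVA12 cells also passed it with DESeq2 size factors and with the marker ratio of 20. Timm23 in 3′ v2 minus 3′ v3 in IVA12 cells was at -0.0070 with the higher mitochondrial limit and -0.49 with the marker ratio of 20, and GABARAP in Jurkat cells ranged from -0.51 to 0.84 without 1 library. In mixture G minus F without 1 library, EL4 cells gave Gpr25 -0.27 to 0.43 (-0.11 without replicate 1), Dennd5b -0.16 to 1.46, Timm23 -1.38 to 0.36 and Tfdp1 -0.88 to 0.83. IVA12 cells gave Tfdp1 -0.32 to 0.92 (-0.11 with the marker ratio of 20), Timm23 -1.35 to 0.31 and Nutf2 -1.37 to 0.022, and Jurkat cells GABARAP -1.97 to 0.42. The 6 differences between human and mouse genes kept their sign. No analysis paired between kits was possible because the numbers here follow accession order and the kits were not run on the same cell mixtures. Within 3′ v3, replicates 1 and 2 targeted 3000 cells and replicates 3 and 4 targeted 6000. The fits of mixture G minus F did not use this. With 2 libraries of 5′ v1 and 1 of 3′ v2, fits without one of them assume that a lone library varies like the rest, and sums of Jurkat cells as small as 1412152 UMIs limit low genes.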
